A study of Mus musculus with 29 samples.

Results

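The mitosis genes described here are 36 genes listed by symbol for their roles in cell division, from the cyclins that start mitosis to the proteins that cut the cell apart at its end. Of these, 35 had a row among the 23930 genes of the deposited table, and the other, Ccnb1, was not analysed here. The rule uses no measured value, and every gene with a row was kept. Splenic and hepatic macrophages were isolated by sorting from wild-type (WT) mice and from Rnaset2-/- mice, which lack both mouse genes for the lysosomal ribonuclease RNase T2, Rnaset2a and Rnaset2b. The mice were C57BL/6 males and females that received no treatment, and neither sex nor age was given for each library. Splenic and hepatic cells were sorted as CD11b+ cells negative for Ly6G, SiglecF and NK1.1, and were divided into Ly6Chi macrophages and Ly6Clow macrophages that carried the Fc receptor Fcgr4. Kupffer cells (KCs), the resident macrophages of the liver, came from WT mice and are labelled as F4/80+ Tim4+ cells. The study's methods name neither Tim4 for the KC sort nor SiglecF for any sort, and no Ly6G or NK1.1 stain for liver, so the gates given here are those of the labels. The 29 libraries comprised 3 each of splenic Ly6Chi and Ly6Clow WT macrophages, 3 of splenic Ly6Chi Rnaset2-/- macrophages, 4 of splenic Ly6Clow Rnaset2-/- macrophages, 3 each of hepatic Ly6Chi and Ly6Clow macrophages of both genotypes, and 4 of WT KCs. The deletion was not restricted to macrophages, so these libraries do not separate changes within macrophages from changes in the cells that supply them.

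Mitosis separates duplicated chromosomes into daughter cells. Cyclins A and B with the kinase CDK1 start it, PLK1 and the Aurora kinases build and correct the spindle, kinetochores attach chromosomes to microtubules, and the spindle checkpoint holds back the anaphase-promoting complex (APC/C) until attachment is complete. Most of these genes are transcribed in G2 and mitosis and are low in resting cells, so their RNA is widely read as a sign of dividing cells, whereas monocytes in blood are known as cells that largely have left division and tissue macrophages can divide in place.

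The libraries were made with a panel that amplifies a fixed short target of each gene, and the values are RPM, that is reads scaled to a common total in each library. Levels are therefore compared between groups for the same gene and not between genes. The libraries held 11175843 to 21167602 reads (median 13027220), and 3 reads, taken as the lowest detectable level, corresponded to 0.142 to 0.268 RPM. This floor covers counting error only. Splenic Ly6Chi Rnaset2-/- libraries were the deepest, at 20404155 to 21167602 reads, against 14280906 to 14415756 in splenic Ly6Chi WT libraries. No library of another group held more than 14572065 reads. Depth and genotype therefore cannot be told apart in splenic Ly6Chi macrophages. Among 1015 values of mitosis genes, 4 were below 3 reads and 1 was 0. The labels do not say that replicates came from separate animals, so p-values measure the spread between these libraries, which may be technical. All 10 markers of macrophages and monocytes were detected in every group. The liver groups differed in sex markers as well as genotype: Xist was 321.5 to 539.3 RPM in WT and 0 to 0.154 RPM in Rnaset2-/- hepatic Ly6Chi and Ly6Clow libraries, and the summed Y-linked genes were 0 to 52.0 RPM in WT and 150.1 to 291.2 RPM in Rnaset2-/-. Sex and genotype cannot be told apart in the liver. In the spleen, replicate 2 of Ly6Clow Rnaset2-/- macrophages held 301.2 RPM of Y-linked genes, against at most 0.14 RPM in the other splenic libraries.

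As nearly all of these genes moved together across the libraries, the sequences upstream of their starts were searched for a pair of short motifs known from cell cycle promoters: CCAAT, the box bound by NF-Y, and TTTGAA, the core of the element through which the MuvB complex acts on genes of G2 and mitosis. Both strands were read, so ATTGG and TTCAAA count as matches, and neither motif contains the other. RefSeq (GRCm38.p6) windows from 250 bases before to 50 bases after the start were found for 30 of the 35 genes. CCAAT was present in 22 of 30 windows (73.3%) and in 37.9% of the windows of 27025 genes. TTTGAA was present in 24 of 30 windows (80.0%) and in 18.1% of all windows. Both occurred in 20 of 30 windows (66.7%), against 7.12% of all windows. In 37 further mitosis genes with a window CCAAT was found in 67.6%, TTTGAA in 59.5% and both in 48.6%. In 36 genes of DNA replication, of which 29 had a window, CCAAT was found in 62.1% and TTTGAA in 13.8%. These matches are a description of letters, not of bound sites. The 150 bases before the start are printed 5′ to 3′ on the strand of the gene, with motif matches in capitals, for Cdk1, Cdc20, Ube2c and Top2a, which carry both motifs there, and for Kif23 and Cenpa, whose hepatic values are described later. These last genes carry only CCAAT in the printed bases but have TTTGAA after the start, and genes that moved with the rest, such as Plk1 and Cdca8, also have TTTGAA only after the start. Their positions were chr10:69352913-69353062 (Cdk1, minus strand), chr4:118437344-118437493 (Cdc20, minus strand), chr2:164769779-164769928 (Ube2c, plus strand), chr11:99024190-99024339 (Top2a, minus strand), chr9:61946800-61946949 (Kif23, minus strand) and chr5:30666736-30666885 (Cenpa, plus strand).
Cdk1: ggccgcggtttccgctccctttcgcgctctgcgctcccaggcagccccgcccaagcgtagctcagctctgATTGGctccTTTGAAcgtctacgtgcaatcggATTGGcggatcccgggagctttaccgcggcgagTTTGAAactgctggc
Cdc20: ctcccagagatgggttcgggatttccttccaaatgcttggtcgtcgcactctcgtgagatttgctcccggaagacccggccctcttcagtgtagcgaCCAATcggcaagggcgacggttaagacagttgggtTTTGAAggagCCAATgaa
Ube2c: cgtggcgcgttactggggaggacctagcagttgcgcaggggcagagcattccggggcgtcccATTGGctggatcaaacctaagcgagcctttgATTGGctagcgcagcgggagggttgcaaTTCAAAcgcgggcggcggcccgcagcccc
Top2a: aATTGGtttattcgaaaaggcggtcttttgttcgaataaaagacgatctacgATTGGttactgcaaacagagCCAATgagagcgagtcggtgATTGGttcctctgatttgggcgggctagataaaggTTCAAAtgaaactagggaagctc
Kif23: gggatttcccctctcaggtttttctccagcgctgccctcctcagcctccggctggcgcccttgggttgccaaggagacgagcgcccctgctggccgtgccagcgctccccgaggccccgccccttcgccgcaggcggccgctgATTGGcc
Cenpa: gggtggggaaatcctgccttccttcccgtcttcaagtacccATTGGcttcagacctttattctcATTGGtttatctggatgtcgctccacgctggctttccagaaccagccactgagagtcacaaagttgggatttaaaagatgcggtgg

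The highest group mean of each of the 35 mitosis genes was in splenic Ly6Chi Rnaset2-/- macrophages. The lowest group mean was in hepatic Ly6Chi WT macrophages for 24 genes, in splenic Ly6Clow WT macrophages for 9, in hepatic Ly6Clow WT macrophages for Racgap1 and in hepatic Ly6Chi Rnaset2-/- macrophages for Kif23. The summed level of the 35 genes was 2031, 1947 and 2032 RPM in splenic Ly6Chi WT replicates 1 to 3 and 3975, 4023 and 4917 RPM in the Rnaset2-/- replicates. In splenic Ly6Clow macrophages it was 243.8, 358.3 and 219.8 RPM in WT replicates. The 4 Ly6Clow Rnaset2-/- replicates held 2053, 896.1, 331.7 and 318.9 RPM. The splenic Ly6Chi groups were thus far apart from each other and internally close, whereas the Ly6Clow Rnaset2-/- libraries ranged from the level of WT Ly6Chi macrophages to that of WT Ly6Clow macrophages.

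In the liver the summed level was 172.0, 268.1 and 240.2 RPM in Ly6Chi WT and 582.9, 504.2 and 421.0 RPM in Ly6Chi Rnaset2-/- replicates. Hepatic Ly6Clow macrophages held 448.1, 406.1 and 407.2 RPM in WT and 902.9, 688.1 and 525.4 RPM in Rnaset2-/- replicates. WT KCs held 613.9, 891.0, 591.5 and 630.1 RPM. In both hepatic subsets all Rnaset2-/- libraries lay above all WT libraries, and none of the hepatic libraries reached the splenic Ly6Chi level. Bulk libraries cannot tell a larger share of dividing cells from more mitotic RNA per cell.

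**Figure D1:**
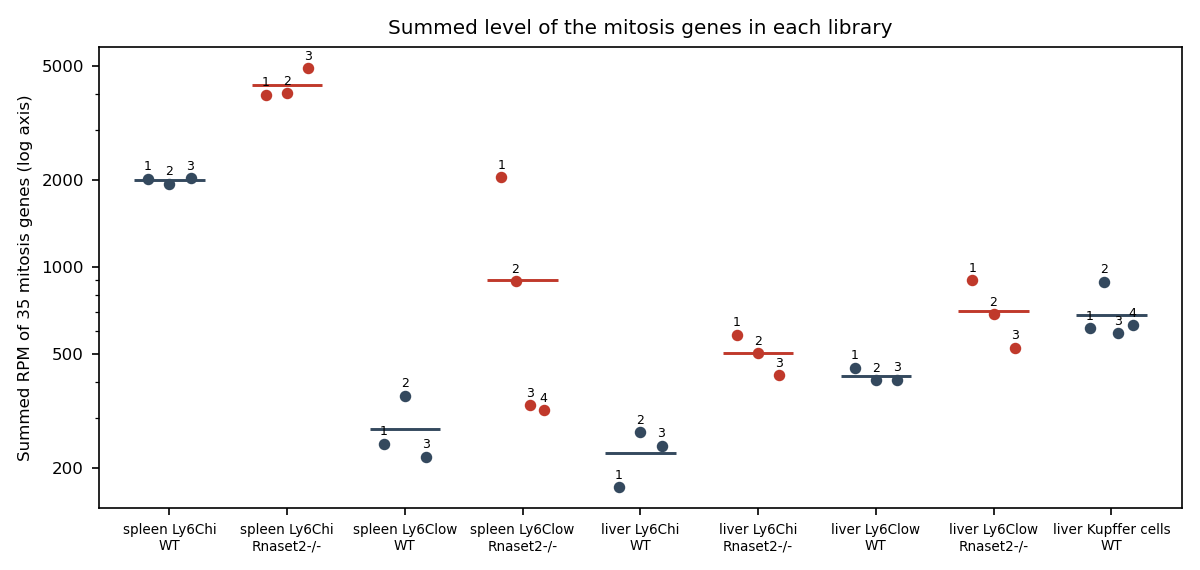
Summed RPM of the 35 mitosis genes (log axis) in each of the 29 libraries, by group, with WT in dark grey, Rnaset2-/- in red, the group mean as a line and the replicate number above each point. Splenic Ly6Chi Rnaset2-/- libraries are highest (3975 to 4917 RPM), and the splenic Ly6Clow Rnaset2-/- libraries spread from 318.9 to 2053 RPM.

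**Figure D2:**
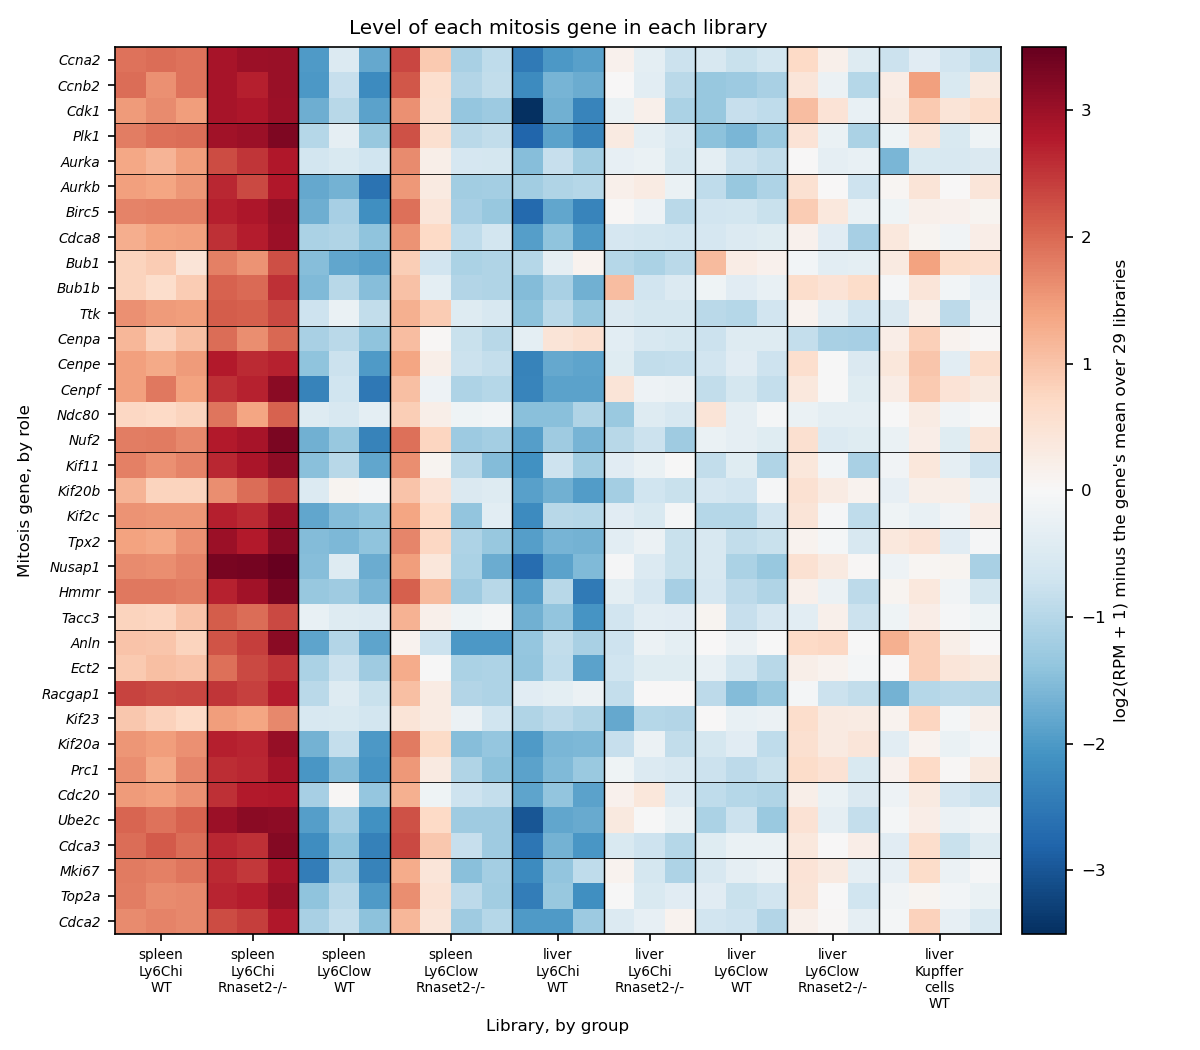
Level of each mitosis gene (rows, ordered by role) in each library (columns, by group) as log2(RPM + 1) minus the mean of that gene over the 29 libraries. Columns of splenic Ly6Chi Rnaset2-/- macrophages are above the mean for all 35 genes, and the rows of Bub1, Cenpa, Racgap1 and Kif23 depart from the other rows in the hepatic columns.

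Splenic Ly6Chi macrophages were compared between genotypes to ask how loss of RNase T2 changed division genes in the less mature subset. Of 35 mitosis genes, 34 rose in Rnaset2-/- macrophages by >1.5-fold with an adjusted p below 0.05 (limma with Benjamini-Hochberg adjustment over all genes tested, two-sided), and none fell. Among all genes tested, 9.77% rose by these criteria. The median log2 fold change of the mitosis genes was 1.28, against 0.01 over all genes. Every Rnaset2-/- library was above every WT library for 35 genes, as for 18.7% of all genes. The exception to the call was Racgap1, a subunit of the centralspindlin complex of the midzone, which was below 1.5-fold.

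Ube2c, the ubiquitin-conjugating enzyme that works with the APC/C, was at 178.0, 162.5 and 182.3 RPM in WT and 347.2, 387.6 and 379.3 RPM in Rnaset2-/- libraries (log2 fold change 1.21 ± 0.09 (SE), adjusted p = 1.1e-05 in limma). Ccna2, encoding cyclin A2, was at 138.7, 144.2 and 137.7 RPM in WT and 277.8, 295.1 and 301.6 RPM in Rnaset2-/- libraries. The groups did not overlap for either gene. The other cyclin-CDK genes rose alike, Ccnb2 by 1.17 and Cdk1, the mitotic kinase itself, by 1.48 on the log2 scale. Top2a, the topoisomerase that untangles sister chromatids, was at 133.2, 120.3 and 123.3 RPM in WT and 242.2, 260.1 and 312.4 RPM in Rnaset2-/- libraries. Birc5, which encodes survivin of the chromosomal passenger complex, was at 118.6, 121.0 and 121.2 RPM in WT and 237.2, 254.3 and 296.1 RPM in Rnaset2-/- libraries. Its partners in that complex, Aurkb and Cdca8, rose by 1.24 and 1.51. The replicates of each genotype lay close together for these genes, with the gap between genotypes wider than either spread.

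Of the spindle kinases, Aurka, which acts at centrosomes, was at 65.5, 57.9 and 70.4 RPM in WT and 124.9, 144.7 and 179.7 RPM in Rnaset2-/- libraries, and Plk1 rose by 1.29. Bub1b, which encodes the checkpoint protein BubR1, was at 60.9, 53.9 and 65.6 RPM in WT and 150.8, 141.9 and 209.7 RPM in Rnaset2-/- libraries (log2 fold change 1.56 ± 0.14 (SE), adjusted p = 2.2e-05). The other checkpoint kinases, Bub1 and Ttk, rose by 1.26 and 0.76. All 5 genes of the centromere and kinetochore rose, with a median of 1.34. Cenpa, the histone variant that marks centromeres, was at 58.4, 45.2 and 53.7 RPM in WT and 101.3, 80.9 and 106.7 RPM in Rnaset2-/- libraries, the smallest of the 5 changes at 0.98. Ndc80 and Nuf2, subunits of the complex that binds microtubule ends, rose by 1.16 and 1.33. Kif20b, a kinesin, was at 37.2, 27.6 and 27.8 RPM in WT and 50.7, 63.8 and 78.4 RPM in Rnaset2-/- libraries. No WT library reached the lowest Rnaset2-/- library for any of these genes.

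The highest log2 fold change was in Nusap1, a protein that binds spindle microtubules near chromosomes, at 28.0, 27.3 and 29.6 RPM in WT and 91.3, 92.7 and 111.1 RPM in Rnaset2-/- libraries (1.87 ± 0.11 (SE), adjusted p = 2.1e-06). Anln, which encodes the cleavage furrow protein anillin, followed at 1.79, and Tpx2, an activator of Aurora A, at 1.65. Tacc3, which stabilizes spindle fibres, was at 46.8, 45.7 and 54.3 RPM in WT and 118.4, 106.8 and 136.8 RPM in Rnaset2-/- libraries. The lowest log2 fold changes were in Racgap1 and Ttk, followed by Kif23. Kif23, the kinesin of centralspindlin, was at 97.7, 88.3 and 81.8 RPM in WT and 141.0, 131.8 and 163.9 RPM in Rnaset2-/- libraries, a rise of 0.81 ± 0.11 (SE; adjusted p = 3.0e-04). Racgap1, its GTPase-activating subunit, was at 147.3, 141.1 and 143.8 RPM in WT and 162.3, 149.9 and 191.6 RPM in Rnaset2-/- libraries (0.33 ± 0.10 (SE), adjusted p = 0.023). Its levels did not overlap between genotypes, but the lowest Rnaset2-/- library was only just above the highest WT library.

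Genes around the set were counted from lists of the same kind. Of 52 further mitosis genes, 46 rose and none fell (median 1.09), and of 34 tested genes of DNA replication 27 rose and none fell (median 0.85). Among 18 regulators of transcription in the cell cycle, 8 rose and none fell. These included Mybl2, which encodes the B-Myb activator of G2 genes (38.5 ± 2.4 RPM in WT and 95.9 ± 29.4 RPM in Rnaset2-/-, SD, n = 3 each), Foxm1, a forkhead activator of mitotic genes (9.999 ± 0.496 and 17.4 ± 1.8 RPM), E2f7 and E2f8, the atypical E2F repressors, which rose by 1.04 and 0.77, the MuvB subunits Lin9 (0.96) and Lin54 (0.67), the E2F partner Tfdp1 (0.96) and Nfyb of NF-Y (0.68). Of 5 tested genes for inhibitors of cyclin-dependent kinases, only Cdkn2c, encoding p18, rose (0.91). Of 9 G1 cyclins and kinases 3 rose and 2 fell, where 12.5% of all genes fell.

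Markers of other cells differed between the same libraries. The summed level of 15 genes of granulocytes and their precursors was 32380 to 34640 RPM in WT and 35680 to 62170 RPM in Rnaset2-/- splenic Ly6Chi libraries, and 10 of the 15 rose (9.77% of all genes). The list did not move evenly. Mpo (2.65), Elane (2.37) and Ctsg (2.34) rose most, S100a8 rose by 1.09, and S100a9 (0.49) did not pass. That of 14 NK and T cell genes was 1126 to 1194 RPM in WT and 144.9 to 250.5 RPM in Rnaset2-/- libraries, and 13 fell. The 4 erythroid, 3 B cell and 6 dendritic cell genes tested all fell. Their part in the rise of the mitosis genes was not tested. The count of 34 was unchanged without each library in turn and fell to 18 in a single fit of all 29 libraries, which shares 1 estimate of the spread among all groups.

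**Figure D3:**
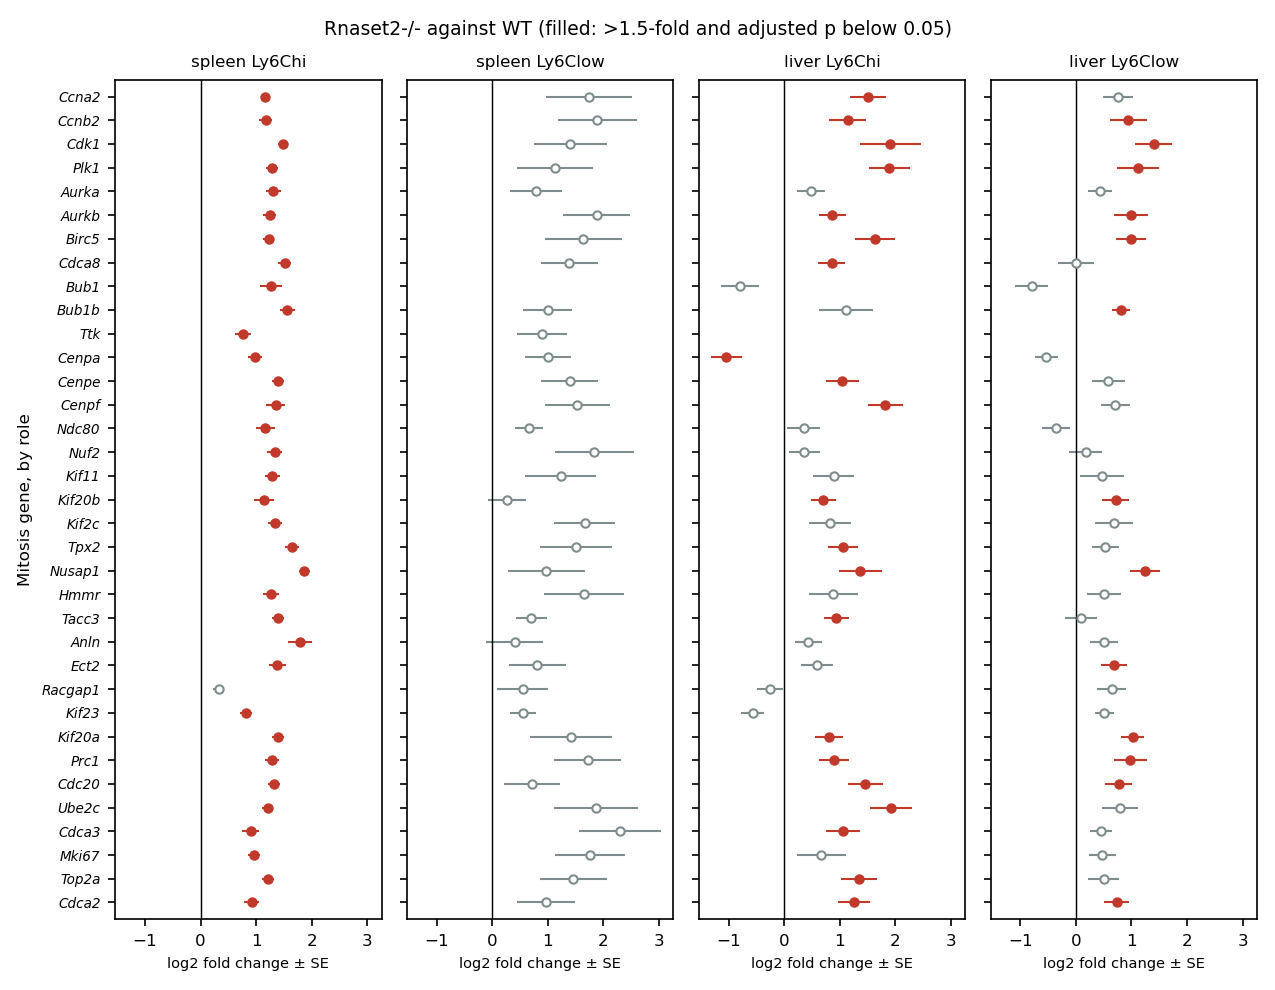
log2 fold change ± SE of each mitosis gene in Rnaset2-/- against WT macrophages, in 4 panels for splenic Ly6Chi, splenic Ly6Clow, hepatic Ly6Chi and hepatic Ly6Clow macrophages. Filled points passed >1.5-fold and an adjusted p below 0.05 (34, 0, 21 and 13 genes), and a missing point marks a gene too low to be tested.

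Splenic Ly6Clow macrophages posed the same question for the more mature subset. Of 34 mitosis genes tested, none passed the criteria in limma, where 4.05% of all genes rose and 4.3% fell. All 34 fold changes were positive, however, with a median log2 fold change of 1.39 against 0.01 over all genes, and 19 had an unadjusted p below 0.05. Bub1 was too low to be tested. Every Rnaset2-/- library was above every WT library for 10 genes, against 14.3% of all genes. DESeq2 on the recovered reads called 15 genes and edgeR none, and a single fit of all 29 libraries called 20.

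The 4 Rnaset2-/- libraries differed in a graded way. Replicate 1 was above every WT library for 35 of 35 genes, with a median ratio to the WT mean of 8.80, and replicate 2 for 34 of 35 genes with a median ratio of 3.88. Replicate 3 was above every WT library for 16 genes and below every WT library for 3, with a median ratio of 1.25. Replicate 4 was above for 11 genes and below for 3, with a median ratio of 1.20. Cdca3, a trigger of mitotic entry that works through ubiquitin ligases, had the highest fold change, at 3.005, 5.83 and 2.53 RPM in WT and 90.1, 34.0, 9.50 and 6.62 RPM in Rnaset2-/- replicates (2.30 ± 0.75 (SE), adjusted p = 0.084). Kif20b had the lowest, at 11.04, 16.8 and 15.4 RPM in WT and 32.1, 22.1, 10.8 and 11.3 RPM in Rnaset2-/- replicates (0.27 ± 0.34 (SE), adjusted p = 0.62). The groups overlapped for Kif20b and did not for Cdca3.

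Replicate 1 was also the highest and replicate 2 the next for the genes shown here for each role. Ube2c was at 10.3, 18.2 and 8.92 RPM in WT and 201.5, 69.8, 17.5 and 17.3 RPM in Rnaset2-/- replicates 1 to 4, and Ccna2 at 8.39, 25.9 and 9.83 RPM in WT and 189.1, 69.7, 16.0 and 19.4 RPM in Rnaset2-/-. Top2a was at 13.5, 19.1 and 8.71 RPM in WT and 119.2, 53.4, 19.4 and 15.6 RPM in Rnaset2-/-. Birc5 was at 9.86, 15.0 and 7.16 RPM in WT and 134.5, 47.1, 14.9 and 13.2 RPM in Rnaset2-/-. For these 4 genes replicates 1 and 2 were above all WT libraries, and replicates 3 and 4 were near or within the WT range. Bub1b was at 11.2, 17.4 and 11.8 RPM in WT and 72.5, 27.4, 16.6 and 16.2 RPM in Rnaset2-/-, and Aurka at 15.6, 16.9 and 15.0 RPM in WT and 79.7, 28.9, 16.2 and 15.9 RPM in Rnaset2-/-. Cenpa was at 11.2, 12.9 and 8.99 RPM in WT and 54.9, 26.2, 14.5 and 12.5 RPM in Rnaset2-/-. Kif23 was at 34.0, 34.6 and 31.6 RPM in WT and 69.6, 61.9, 43.8 and 30.5 RPM in Rnaset2-/-. Tacc3, at 22.0, 19.2 and 18.9 RPM in WT and 63.4, 30.5, 23.8 and 25.6 RPM in Rnaset2-/-, was above WT in all 4.

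Markers of several other cells were highest in the same libraries. The summed granulocyte genes were 1130 to 2555 RPM in WT and 43290, 24170, 4615 and 3635 RPM in Rnaset2-/- replicates 1 to 4. The erythroid genes were 45.3 to 110.7 RPM in WT and 1011, 247.2, 60.9 and 77.8 RPM in Rnaset2-/-. The stem and progenitor genes were 38.0 to 68.0 RPM in WT and 148.5, 106.5, 27.7 and 26.4 RPM in Rnaset2-/-. All 3 lists were thus highest in replicates 1 and 2, as the mitosis genes were. The B and plasma cell genes, at 52.8 to 66.8 RPM in WT, were higher in all 4 Rnaset2-/- libraries, at 838.9, 1385, 226.9 and 209.1 RPM. The NK and T cell genes, at 140.7 to 213.7 RPM in WT, were lower in all 4 Rnaset2-/- libraries, at 82.2, 128.9, 46.5 and 27.8 RPM, and 7 of 13 tested fell. The Kupffer cell genes were 27.4 to 53.8 RPM in WT and 453.6, 177.6, 90.8 and 146.6 RPM in Rnaset2-/-. Of 5 tested only Cd5l was higher (2.53), while Timd4 (-0.03), Vsig4 (-0.26), Folr2 (-0.41) and Marco (0.69) did not pass. The study reports AIM, the protein of Cd5l, to be induced in splenic Ly6Clow macrophages themselves, more weakly than in the liver. The part of these 6 lists in the mitosis values was not tested. Without replicate 1 the median log2 fold change was 0.86 and without replicate 2 it was 1.19, with no gene called in either case. Without replicate 3, 1 gene was called, and without replicate 4, 2 genes. Of the other lists, none of 49 further mitosis genes (median 1.10) and none of 33 DNA replication genes (median 0.58) passed. E2f1 rose by 0.79. Cdkn2a, which encodes the inhibitors p16 and p19Arf, was at 0 to 0.14 RPM in WT and 1.48 to 4.98 RPM in Rnaset2-/- libraries. It reached the filter on low values only through Rnaset2-/- libraries, so these levels are a description. Cdkn1a, the gene of p21, was at 253.7 ± 10.3 RPM in WT (SD, n = 3) and 148.6 ± 44.5 RPM in Rnaset2-/- libraries (SD, n = 4), without overlap, and its change of -0.81 ± 0.25 (SE) did not pass (adjusted p = 0.076 in limma). Cdkn1b (-0.90) and Cdkn1c (-0.67) also lay below WT without overlap and did not pass.

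The effect of genotype was compared directly between the splenic subsets. No mitosis gene differed between Ly6Clow and Ly6Chi macrophages in the interaction of genotype and subset (limma, 35 genes tested), where 14.7% of all genes did, and 1 had an unadjusted p below 0.05. DESeq2 and edgeR also called 0. Without Ly6Clow Rnaset2-/- replicate 1, 6 genes were called. The wide spread of the Ly6Clow Rnaset2-/- libraries limits this comparison.

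Hepatic Ly6Chi macrophages gave the next comparison of genotypes. Of 34 mitosis genes tested, 20 rose in Rnaset2-/- macrophages (15.7% of all genes) and 1, Cenpa, fell (14.9% of all genes). The median log2 fold change was 0.90, against 0.01 over all genes, and 30 of 34 were positive. All Rnaset2-/- libraries were above all WT libraries for 27 genes, against 36.4% of all genes, and below them for 1 gene, against 14.2%. Ttk was too low to be tested.

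Ube2c had the highest log2 fold change, from 4.48, 11.3 and 11.7 RPM in WT to 54.3, 41.9 and 35.8 RPM in Rnaset2-/- libraries (1.93 ± 0.38 (SE), adjusted p = 0.0083 in limma). The ratio of mean RPM was higher for Plk1 (6.75), Cenpf (6.66), Cdk1 (4.96) and Ttk (4.87) than for Ube2c (4.80). Cdc20, the activator of the APC/C, and Cdca3 rose with it, by 1.46 and 1.05. Ccna2 was at 5.71, 8.34 and 9.12 RPM in WT and 40.3, 28.3 and 21.1 RPM in Rnaset2-/- libraries, and Cdk1 at 0.849, 6.51 and 3.85 RPM in WT and 19.3, 26.0 and 10.2 RPM in Rnaset2-/- libraries (1.92 ± 0.56 (SE)). All 3 cyclin-CDK genes, all 3 genes of the passenger complex and all 3 genes of the APC/C and ubiquitin group rose. Birc5 was at 4.40, 9.10 and 6.26 RPM in WT and 36.1, 30.4 and 17.5 RPM in Rnaset2-/- libraries, and Top2a at 6.25, 14.3 and 7.78 RPM in WT and 37.5, 25.6 and 28.2 RPM in Rnaset2-/- libraries. Plk1 rose by 1.89. The lowest Rnaset2-/- library of each of these genes was above the highest WT library.

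The other roles were mixed. Of the kinetochore genes, Cenpf (1.82) and Cenpe (1.05) rose, Ndc80 and Nuf2 had values of 0.35 and 0.36 that did not pass, and Cenpa was at 19.99, 35.04 and 38.0 RPM in WT and 19.4, 17.0 and 16.4 RPM in Rnaset2-/- libraries (-1.04 ± 0.28 (SE), adjusted p = 0.026). Every Rnaset2-/- library was below every WT library for Cenpa, the nearest pair being 19.4 and 19.99 RPM, and its change was -0.74 and did not pass in RPM as deposited. Neither tested checkpoint kinase passed. Bub1b was at 11.5, 15.4 and 10.3 RPM in WT and 75.2, 21.6 and 24.6 RPM in Rnaset2-/- libraries, and Bub1 at 1.00, 2.17 and 3.31 RPM in WT and 0.998, 0.850 and 1.077 RPM in Rnaset2-/- libraries (-0.79 ± 0.34 (SE), adjusted p = 0.11). Replicate 1 was far above the others for Bub1b, and the groups overlapped for Bub1. Aurka was at 8.26, 13.8 and 10.2 RPM in WT and 20.1, 21.0 and 15.8 RPM in Rnaset2-/- libraries, with a fold change of 0.49 that did not pass.

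Spindle proteins and kinesins rose in part. Tacc3 was at 7.64, 9.68 and 5.63 RPM in WT and 16.5, 20.4 and 20.1 RPM in Rnaset2-/- libraries (0.94), Nusap1 rose by 1.37 and Tpx2 by 1.06. Kif20b was at 3.47, 4.17 and 3.31 RPM in WT and 6.37, 9.42 and 8.85 RPM in Rnaset2-/- libraries (0.71), while Kif11 and Kif2c, at 0.89 and 0.83, did not pass. Of 6 cytokinesis genes only Prc1 (0.90), which bundles midzone microtubules, and Kif20a (0.81) rose. Kif23 was at 23.7, 26.3 and 23.5 RPM in WT and 13.9, 24.5 and 24.1 RPM in Rnaset2-/- libraries (-0.57 ± 0.21 (SE), adjusted p = 0.078). Racgap1 was at 20.7, 21.7 and 23.8 RPM in WT and 14.9, 28.0 and 28.0 RPM in Rnaset2-/- libraries. Both centralspindlin genes were lowest in replicate 1 and overlapped between genotypes.

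The number that rose depended on single libraries. The count of 21 called genes was 4 without WT replicate 1, 11 without WT replicate 2, 6 without WT replicate 3, 7 without Rnaset2-/- replicate 2 and 14 without Rnaset2-/- replicate 3. These smaller fits also have fewer libraries. NK and T cell genes summed to 40.9 to 59.4 RPM in WT and 820.3 to 1093 RPM in Rnaset2-/- libraries, with 12 of 14 higher (15.7% of all genes). Klrk1 of the same list was lower (-1.045), and Klra8 did not pass. The 6 Kupffer cell genes summed to 2.67 to 2.86 RPM in WT and 168.0 to 415.2 RPM in Rnaset2-/- libraries, and 6 of 6 endothelial genes rose. The part of these markers in the mitosis values was not tested. Scaling mattered here, since RPM as deposited moved the median of all genes by 0.30 on the log2 scale and gave 22 risen and no fallen mitosis genes. Of the further mitosis genes 20 rose and 2 fell of 47, and of the DNA replication genes 15 rose and 1 fell of 33.

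In hepatic Ly6Clow macrophages 13 of 34 mitosis genes rose in Rnaset2-/- mice and none fell in limma, where 20.2% of all genes rose and 22.5% fell. The median log2 fold change was 0.66, against 0.01 over all genes, and 31 of 34 were positive. All Rnaset2-/- libraries were above all WT libraries for 19 genes (29% of all genes) and below them for 2, Bub1 and Cenpa (27.1% of all genes). Cdk1 changed most, from 8.61, 12.7 and 12.1 RPM in WT to 49.9, 32.7 and 19.2 RPM in Rnaset2-/- libraries (1.404 ± 0.33 (SE), adjusted p = 0.010). Bub1 had the lowest value, at 7.53, 3.75 and 3.40 RPM in WT and 2.69, 2.10 and 2.14 RPM in Rnaset2-/- libraries (-0.80 ± 0.30 (SE), adjusted p = 0.058). The groups did not overlap for either gene.

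Among the other risen genes were Nusap1 (1.24), Plk1 (1.12), Kif20a (1.02), a kinesin of the midzone, Aurkb (0.99), Prc1 (0.98) and Ccnb2 (0.95). Birc5 was at 21.4, 22.1 and 20.04 RPM in WT and 65.7, 45.7 and 29.2 RPM in Rnaset2-/- libraries (1.00), and Bub1b at 31.4, 26.3 and 29.3 RPM in WT and 54.6, 49.2 and 54.9 RPM in Rnaset2-/- libraries (0.81 ± 0.16 (SE), adjusted p = 0.0052). Kif20b was at 10.1, 9.50 and 15.2 RPM in WT and 23.2, 19.5 and 17.2 RPM in Rnaset2-/- libraries (0.72). For Birc5 and Kif20b replicate 1 was the highest and replicate 3 the lowest Rnaset2-/- library, whereas Bub1b was even over the replicates.

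Several genes did not pass. Ube2c was at 19.3, 24.8 and 16.6 RPM in WT and 60.4, 33.7 and 23.4 RPM in Rnaset2-/- libraries (0.80 ± 0.33 (SE), adjusted p = 0.081), Ccna2 at 24.4, 20.7 and 22.8 RPM in WT and 59.2, 41.3 and 26.2 RPM in Rnaset2-/- libraries, and Top2a at 28.4, 21.4 and 23.4 RPM in WT and 52.0, 37.7 and 23.0 RPM in Rnaset2-/- libraries. Replicate 3 was within the WT range for Ube2c and Top2a. Aurka was at 19.5, 14.2 and 13.2 RPM in WT and 25.2, 19.8 and 20.5 RPM in Rnaset2-/- libraries, Tacc3 at 28.4, 14.8 and 17.4 RPM in WT and 20.6, 30.2 and 15.5 RPM in Rnaset2-/- libraries, and Cenpa at 14.9, 18.6 and 18.4 RPM in WT and 14.01, 11.1 and 10.9 RPM in Rnaset2-/- libraries (-0.53 ± 0.21 (SE), adjusted p = 0.070). Cenpa was below WT in all 3 libraries, as it was in the Ly6Chi subset. Kif23 was at 51.1, 41.8 and 43.8 RPM in WT and 77.0, 62.9 and 61.9 RPM in Rnaset2-/- libraries, with no overlap and an adjusted p of 0.037 in limma, but its change of 0.51 was below 1.5-fold. Racgap1 was at 14.2, 9.06 and 10.5 RPM in WT and 26.2, 16.0 and 14.6 RPM in Rnaset2-/- libraries, also without overlap.

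The count of 13 was 5 without WT replicate 1, WT replicate 2, WT replicate 3 or Rnaset2-/- replicate 1, 6 without Rnaset2-/- replicate 2 and 21 without Rnaset2-/- replicate 3, the library with the lowest summed level. The 6 Kupffer cell genes summed to 96.1 to 125.6 RPM in WT, 5686 to 10810 RPM in Rnaset2-/- Ly6Clow libraries and 5838 to 18330 RPM in WT KCs. The NK and T cell genes summed to 28.1 to 33.4 RPM in WT and 252.5, 74.4 and 141.6 RPM in Rnaset2-/- replicates 1 to 3, with 7 of 10 tested higher and 1 lower. The B and plasma cell genes summed to 26.6 to 32.8 RPM in WT and 111.2 to 391.7 RPM in Rnaset2-/- libraries, and the erythroid genes to 40.8 to 59.0 RPM in WT and 57.2 to 167.0 RPM in Rnaset2-/- libraries. Like the summed mitosis genes, the Kupffer, NK and T cell and erythroid genes were highest in replicate 1. The part of these 4 lists in the mitosis values was not tested. Of 49 further mitosis genes 7 rose and 1 fell, and of 33 DNA replication genes 7 rose and 2 fell, where 20.2% of all genes rose and 22.5% fell.

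Among 18 regulators of cell cycle transcription, Mybl2 (3.77 ± 0.78 RPM in WT and 13.5 ± 3.2 RPM in Rnaset2-/-, SD, n = 3 each) and Rbl2 (log2 fold change 1.29) rose in hepatic Ly6Chi macrophages, where 15.7% of all genes did, and Rbl1 (-0.96) and Tfdp1 (-0.72) fell, where 14.9% did. Rbl1 and Rbl2 encode the p107 and p130 pocket proteins, which repress cell cycle genes with MuvB in resting cells. Foxm1 (0.42 ± 0.23 and 1.80 ± 0.16 RPM) and E2f7 (0.37 ± 0.15 and 2.75 ± 1.16 RPM) reached the filter on low values there only through Rnaset2-/- libraries, so their levels are a description. In Ly6Clow macrophages 1 of the 18 rose and 5 fell, where 20.2% of all genes rose and 22.5% fell. Of these, E2f1 rose from 21.3 ± 0.9 to 49.5 ± 3.0 RPM (SD, n = 3 each). E2f2 fell from 31.3 ± 2.6 to 5.37 ± 3.30 RPM, with Rbl1 (-1.76), Lin9 (-0.88), Lin37 (-0.74) and Lin54 (-0.71).

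Among the inhibitors of cyclin-dependent kinases, Cdkn2c rose and Cdkn1a fell in hepatic Ly6Chi macrophages, and Cdkn2c rose and 4 genes fell in Ly6Clow macrophages, beside the same shares of all genes. Cdkn1a, which encodes p21, fell in Ly6Chi macrophages from 750.1 ± 138.9 to 165.3 ± 93.8 RPM and in Ly6Clow macrophages from 470.9 ± 151.8 to 34.8 ± 15.0 RPM (SD, n = 3 each), while WT KCs held 78.6 ± 2.6 RPM (SD, n = 4). Cdkn2d, Cdkn1b and Cdkn1c fell in Ly6Clow macrophages by 1.92, 1.30 and 1.30 on the log2 scale. Cdkn2c rose in both subsets, by 1.13 and 1.28. Cdkn2a was at most 0.436 RPM in hepatic WT Ly6Chi and Ly6Clow libraries and reached 1.23 to 3.76 RPM in Ly6Chi and 6.31 to 42.2 RPM in Ly6Clow Rnaset2-/- libraries. It reached the filter only through Rnaset2-/- libraries in both subsets, so these levels are a description. In the spleen, Cdkn1a stood at 194.4 ± 17.9 RPM in WT and 190.3 ± 52.7 RPM in Rnaset2-/- Ly6Chi macrophages and did not pass, nor did it in splenic Ly6Clow macrophages.

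Direct tests were made of whether the effect of genotype differed in the liver. Between hepatic subsets it differed for 1 of the mitosis genes, Kif23, at 1.10 ± 0.26 (SE, log2 scale, Ly6Clow minus Ly6Chi; adjusted p = 0.019 in limma), where 5.08% of all genes were higher in this sense. It was not called in RPM as deposited, nor without Ly6Clow WT replicate 3. Between liver and spleen the effect in Ly6Chi macrophages was lower in the liver for 5 genes (16% of all genes): Bub1 (-2.05 ± 0.40), Cenpa (-1.99 ± 0.32), Kif23 (-1.35 ± 0.23), Anln (-1.33 ± 0.34) and Nuf2 (-0.94 ± 0.30). Bub1, Cenpa and Kif23 were called under all 8 alternatives and without each of the 12 libraries, Anln under 7 of 8 and without each library, and Nuf2 under 4 of 8 and in 4 of the 12 fits that left out a library. Without splenic or without hepatic Ly6Chi Rnaset2-/- replicate 1, 8 genes were called. In Ly6Clow macrophages the effect was lower in the liver for Cenpa (-1.52 ± 0.52), Ndc80 (-1.01 ± 0.35) and Bub1, where 14.7% of all genes were. Bub1 was at 0.07 to 0.419 RPM in splenic WT libraries and too low to be tested in the spleen alone, so its value of -2.01, which ran from -4.56 to -1.59 over the alternatives, is no measure of a difference. Cenpa and Ndc80 were each called under 6 of 8 alternatives, being lost with no filter and in RPM as deposited, and in only 4 of the 13 fits that left out a library. Without hepatic Ly6Clow WT replicate 1 no gene was called, and 1 gene was called without splenic WT replicate 1, 2 or 3, splenic Rnaset2-/- replicate 2, hepatic WT replicate 3 or hepatic Rnaset2-/- replicate 2 or 3.

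**Figure D4:**
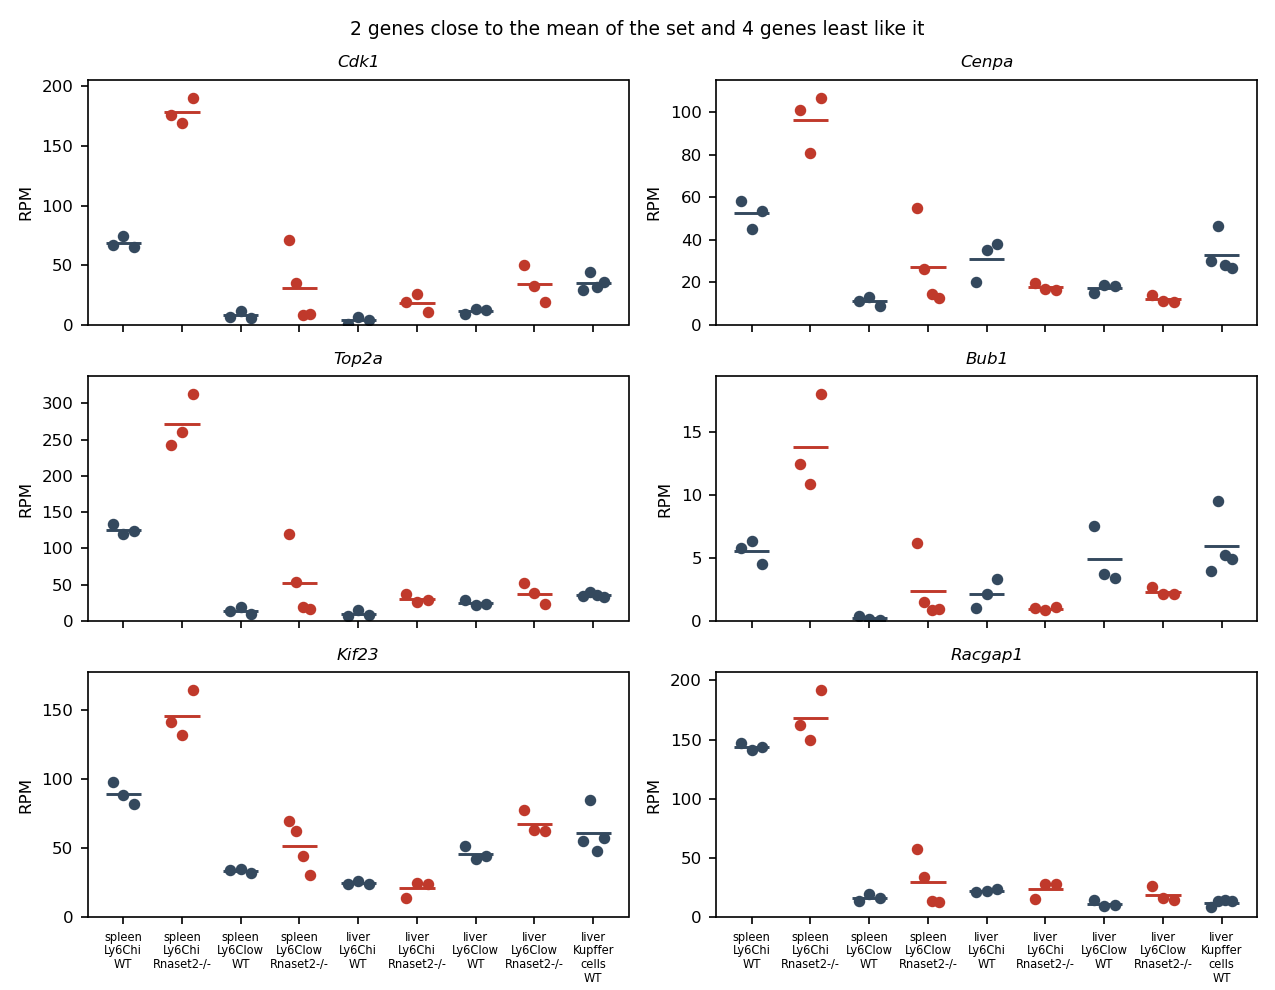
RPM in every library of Cdk1 and Top2a, which followed the mean of the other mitosis genes over 29 libraries (r = 0.958 and 0.991), and of Cenpa, Bub1, Kif23 and Racgap1, which followed it least. Points are libraries (WT dark grey, Rnaset2-/- red) and lines are group means. In hepatic Ly6Chi and Ly6Clow macrophages the group means of Cenpa and Bub1 are lower in Rnaset2-/- than in WT of the same subset, while that of Cdk1 is higher.

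The way each gene followed the others was described by Pearson's r between its log2(RPM + 1) and the mean of the other 34 genes over the 29 libraries, which share organs, subsets and genotypes. The genes closest to the rest were Top2a (0.991), Tpx2 (0.988) and Birc5 (0.985). The least alike were Bub1 (0.771), Cenpa (0.800), Racgap1 (0.822) and Kif23 (0.857). In the 13 splenic libraries these 4 had r of 0.979, 0.995, 0.957 and 0.978, so they moved with the rest there. In the 16 hepatic libraries r was 0.366 for Bub1, -0.141 for Cenpa, -0.288 for Racgap1 and 0.637 for Kif23, against 0.955 for Top2a. Aurka also had a low r in the liver, at 0.572, with 0.925 over all libraries.

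Ly6Clow and Ly6Chi macrophages of the spleen were compared within each genotype to ask how division genes differ along maturation. These comparisons share their libraries with those of genotype. In WT mice all 35 mitosis genes were lower in Ly6Clow macrophages (19.8% of all genes in limma), with a median log2 fold change of -2.83 and no overlap for any of the 35 (38.9% of all genes). Bub1 reached the filter only through Ly6Chi libraries. Cdca3 had the largest log2 fold change, at 69.2, 80.1 and 69.9 RPM in Ly6Chi and 3.005, 5.83 and 2.53 RPM in Ly6Clow libraries (-3.88 ± 0.22 (SE), adjusted p = 3.7e-07). Mki67, the gene of the proliferation antigen Ki67, differed by -3.66 and Ube2c by -3.62. The smallest differences were in Kif20b (-0.91), Ndc80 (-1.05), Tacc3 (-1.10) and Kif23 (-1.24). Every one of the 15 granulocyte and 14 NK and T cell genes was lower in the same comparison. Stem and progenitor genes summed to 145.0 to 156.0 RPM in Ly6Chi and 38.0 to 68.0 RPM in Ly6Clow libraries, and B and plasma cell genes to 617.9 to 700.2 and 52.8 to 66.8 RPM. Dendritic cell genes summed to 122.1 to 128.1 and 35.1 to 47.9 RPM, and erythroid genes to 125.1 to 129.5 and 45.3 to 110.7 RPM. Kupffer cell genes were higher in Ly6Clow libraries, at 19.0 to 21.1 and 27.4 to 53.8 RPM. The part of all these lists was not tested.

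In Rnaset2-/- spleen all 35 genes were again lower in Ly6Clow macrophages (15.1% of all genes), with a median of -2.71 and no overlap for 35 genes (21.7% of all genes). The largest difference was in Anln (-3.76 ± 0.51) and the smallest in Kif23 (-1.53 ± 0.24). Granulocyte genes summed to 35680 to 62170 RPM in Ly6Chi and 43290, 24170, 4615 and 3635 RPM in Ly6Clow libraries, with 7 of 15 lower. Erythroid genes summed to 10.1 to 17.9 RPM in Ly6Chi and 60.9 to 1011 RPM in Ly6Clow libraries, with 6 of 7 higher. B and plasma cell genes summed to 108.5 to 146.5 and 209.1 to 1385 RPM, and Kupffer cell genes to 4.49 to 8.82 and 90.8 to 453.6 RPM. Basophil and mast cell genes summed to 11.7 to 12.8 and 16.3 to 66.6 RPM, and NK and T cell genes to 144.9 to 250.5 and 27.8 to 128.9 RPM. Their part was not tested. The highest Ly6Clow library, replicate 1, still held 2053 RPM in sum against 3975 RPM in the lowest Ly6Chi library. Of the further mitosis genes 45 of 52 were lower in WT and 48 of 52 in Rnaset2-/- spleen. Of the DNA replication genes 25 of 33 and 23 of 34 were lower, with medians of -0.89 and -1.26.

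**Figure D5:**
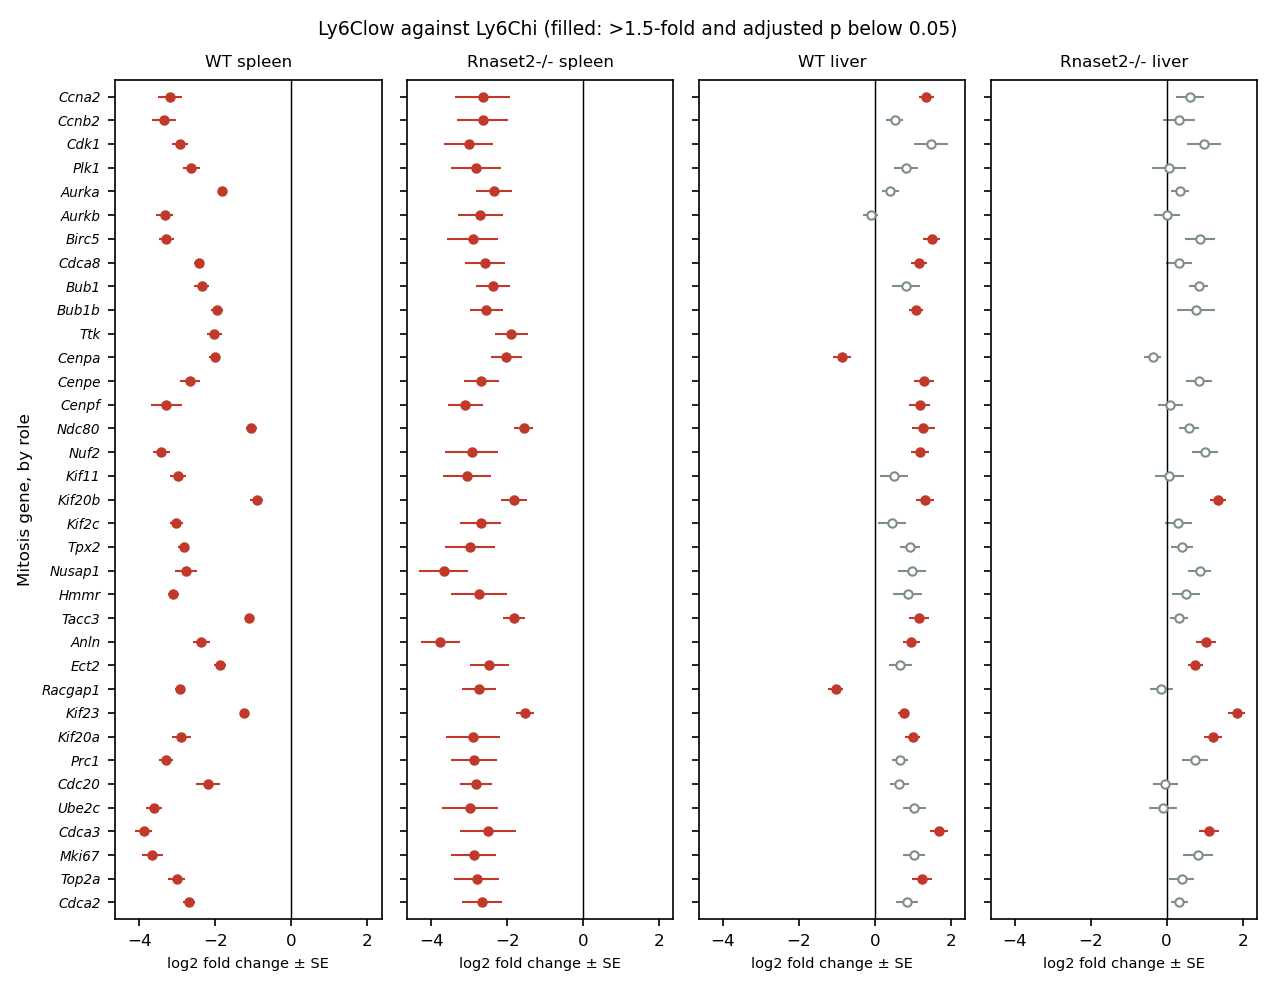
log2 fold change ± SE of each mitosis gene in Ly6Clow against Ly6Chi macrophages, in 4 panels for WT spleen, Rnaset2-/- spleen, WT liver and Rnaset2-/- liver. Filled points passed >1.5-fold and an adjusted p below 0.05. All 35 genes lie below 0 in both splenic panels, and 15 filled points lie above 0 in WT liver and 6 in Rnaset2-/- liver.

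The liver showed the opposite order. In WT liver 15 of 34 mitosis genes were higher in Ly6Clow macrophages (5.24% of all genes) and Cenpa and Racgap1 were lower (4.84% of all genes), with a median of 0.96. All Ly6Clow libraries were above all Ly6Chi libraries for 26 genes (19.2% of all genes) and below them for 2 (10.7%). Cdca3 was again first, at 2.16, 4.84 and 3.40 RPM in Ly6Chi and 12.7, 14.6 and 14.6 RPM in Ly6Clow libraries (1.70 ± 0.24 (SE), adjusted p = 0.0023). Of the genes that passed, Birc5 (1.495), Ccna2 (1.36), Kif20b (1.32) and Cenpe (1.30) followed, while Cdk1, at 1.48, did not pass. Cenpa differed by -0.87 ± 0.23, which did not pass in RPM as deposited, and Racgap1 by -1.03 ± 0.20. Kupffer cell genes summed to 2.67 to 2.86 RPM in Ly6Chi and 96.1 to 125.6 RPM in Ly6Clow libraries. Granulocyte genes summed to 355.8 to 2540 RPM in Ly6Chi and 8.86 to 15.2 RPM in Ly6Clow libraries. As each list was very low in 1 subset, these levels are a description. Endothelial genes summed to 41.1 to 79.1 RPM in Ly6Chi and 121.0 to 302.7 RPM in Ly6Clow libraries, and hepatocyte genes to 28.4 to 33.4 and 46.6 to 106.8 RPM. Stem and progenitor genes summed to 29.8 to 45.9 and 68.5 to 86.1 RPM, and dendritic cell genes to 148.2 to 164.7 and 230.2 to 283.8 RPM. Genes within both lists differed in direction. Cd34 (2.97) and Kit (1.73) were higher and Myb (-1.87) was lower in Ly6Clow macrophages. Zbtb46 (2.15), Xcr1 (1.60) and Clec9a (0.72) were higher and Siglech (-2.52) and Ccr9 (-1.85) were lower. Lower in Ly6Clow libraries were B and plasma cell genes, at 58.7 to 103.6 and 26.6 to 32.8 RPM, and NK and T cell genes, at 40.9 to 59.4 and 28.1 to 33.4 RPM. None of these lists overlapped between the subsets. The part of these markers was not tested. The count of 17 was 10 without Ly6Chi WT replicate 1, 11 without Ly6Clow WT replicate 1 and 6 without Ly6Clow WT replicate 3.

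In Rnaset2-/- liver 6 of 34 genes were higher in Ly6Clow macrophages (8.75% of all genes) and none lower (8.26% of all genes), with a median of 0.55. They were Kif23 (1.84 ± 0.22), Kif20b (1.35), Kif20a (1.22), Cdca3 (1.11), Anln (1.04) and Ect2 (0.76), of which Kif23, Kif20a, Anln and Ect2 belong to the 6 cytokinesis genes. The groups did not overlap for 10 genes above (15.7% of all genes) and 1 below (22.8%). The NK and T cell genes summed to 820.3 to 1093 RPM in Ly6Chi and 74.4 to 252.5 RPM in Ly6Clow libraries, the granulocyte genes to 297.3 to 1877 and 6.97 to 26.6 RPM, and the Kupffer cell genes to 168.0 to 415.2 and 5686 to 10810 RPM. Their part in the mitosis values was not tested. Same-numbered libraries deviated together in this comparison, and with the replicate number as a block 13 genes were called. Leaving out Ly6Chi Rnaset2-/- replicate 2 or 3 gave 3 and 2 genes, and leaving out Ly6Clow Rnaset2-/- replicate 1, 2 or 3 gave 3, 2 and 3.

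The difference between organs in the order of the subsets was fitted directly, in a comparison chosen after both orders had been seen, so it puts a size on them and is no independent evidence. Ttk entered it through the spleen, being at 0 to 0.716 RPM in WT and 0.689 to 1.924 RPM in Rnaset2-/- hepatic Ly6Chi and Ly6Clow libraries. Bub1 was at 0.07 to 0.419 RPM in splenic Ly6Clow WT libraries. Both are counted among the 35 genes given next. The values of Ttk in both genotypes and of Bub1 in WT mice are a description. In WT mice the Ly6Clow to Ly6Chi difference was higher in liver than in spleen for 35 genes (10.6% of all genes in limma), by a median of 3.54 on the log2 scale, from 1.15 for Cenpa to 5.57 for Cdca3. In Rnaset2-/- mice it was higher for 35 genes (13.7% of all genes), by a median of 3.17, from 1.61 for Cenpa to 4.77 for Anln. Organs also differed in how tissue was dissociated and cells enriched before the sort, and organ and preparation cannot be told apart.

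WT KCs were compared with hepatic Ly6Clow WT macrophages. In KCs 5 mitosis genes were higher and none lower, where 26% of all genes were higher and 24% lower in limma: Ccnb2 (1.076 ± 0.38), Cdk1 (1.02 ± 0.23), Plk1 (0.84), Aurkb (0.78) and Cenpf (0.75). The median over 34 genes was 0.15. Cdk1 was at 29.2, 44.6, 31.8 and 35.8 RPM in KCs and 8.61, 12.7 and 12.1 RPM in Ly6Clow macrophages. Cenpa was at 30.1, 46.5, 28.2 and 26.5 RPM in KCs, above all Ly6Clow libraries, with a scaled change of 0.29 that did not pass. Top2a was at 34.3, 40.4, 35.02 and 32.1 RPM, Ube2c at 40.5, 50.2, 36.4 and 39.1 RPM and Birc5 at 31.3, 39.5, 38.9 and 37.2 RPM in KCs. In RPM as deposited 19 genes were above all Ly6Clow libraries (47.1% of all genes), and 15 were called, with the median of all genes moved by 0.56. With the scaling, 2 genes were called without Ly6Clow WT replicate 1 or 3. Markers of other cells differed widely. Endothelial genes summed to 2917 to 5880 RPM in KCs and 121.0 to 302.7 RPM in Ly6Clow macrophages, and hepatocyte genes to 1083 to 3659 and 46.6 to 106.8 RPM. NK and T cell genes summed to 498.7 to 1261 RPM in KCs and 28.1 to 33.4 RPM in Ly6Clow macrophages, and B and plasma cell genes to 509.5 to 1054 and 26.6 to 32.8 RPM. The tested genes of these 4 lists were all higher in KCs, and their part in the mitosis values was not tested. KC replicate 3 stood apart, with 5838 RPM of Kupffer cell genes against 16340 to 18330 RPM in the other KC libraries. Its hepatocyte genes summed to 3659 RPM against 1083 to 1211 RPM, and 7 genes were called without it. Xist was at 647.2 to 948.8 RPM in KCs and 375.1 to 508.3 RPM in Ly6Clow libraries. Y-linked genes summed to 0 RPM in KCs and 0 to 52.0 RPM in Ly6Clow libraries. Kif23 was at 54.7, 84.9, 47.5 and 57.0 RPM, Bub1b at 33.8, 46.9, 32.8 and 28.7 RPM, Ccna2 at 21.2, 27.4, 22.4 and 19.6 RPM and Aurka at 7.45, 17.0, 16.6 and 17.1 RPM in KCs, and all 4 overlapped with Ly6Clow macrophages. Tacc3, at 24.2, 31.4, 26.0 and 23.8 RPM, and Kif20b, at 12.8, 18.1, 18.2 and 13.4 RPM, overlapped as well.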

How the data were processed

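RNA of sorted macrophages was sequenced from amplicon libraries (Ion AmpliSeq Transcriptome Mouse kit, Ion Proton), and the authors deposited RPM per gene, counted with the AmpliSeqRNA plug-in on mm10 per the submitters' processing notes. All values were whole reads within 0.1 reads, so reads were recovered. In each comparison the values were scaled by relative log expression factors. Genes that reached 1 RPM in 3 or more of the compared libraries were tested on log2(value + 1) in limma 3.58.1 (R 4.3.3, lmFit and eBayes with a trend, two-sided, Benjamini-Hochberg over all tested genes). Genes were called at >1.5-fold with an adjusted p below 0.05. The added 1 makes fold changes of low genes smaller than their RPM ratios. The study's DESeq2 (1.42.0) and edgeR's quasi-likelihood test (4.0.16) were run on recovered reads as alternatives, with an added value of 0.1, no filter, RPM as deposited, 1 fit of all 29 libraries, a replicate block and leaving out each library. Interactions used the 4 groups concerned. The scripts were tested on simulated data.

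The members and lists were chosen with earlier results of these data known. Levels are given by library for the gene with the highest mean RPM of each role and for the genes of highest and lowest fold change between genotypes. Genes outside the set were named where lists of transcription regulators or inhibitors of cyclin-dependent kinases passed the test. Library pairs of a group differed by more than sampling noise (mean chi-square per gene 5.91 to 197), so none was merged. Same-numbered hepatic Rnaset2-/- libraries deviated together (r of 0.506, 0.219 and 0.421), and the data alone give this pairing. Promoter windows are from RefSeq. Rnaset2a, Rnaset2b and the Ly6c genes were not analysed here, so genotype and subset were not checked on them.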

Additional observations from a re-analysis of the deposited data

Results flagged for a closer look

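In groups of 4 libraries, 5 of 72 values had a library far from the other 3, and chance alone sets about 1 in 20 such groups apart. The gap to the nearest library, as a share of the range of the group, was 0.88 for Bub1 (6.19 RPM against 1.49) and 0.83 for Tacc3 (63.4 against 30.5 RPM) in splenic Ly6Clow Rnaset2-/- replicate 1. In KC replicate 1 it was 0.946 for Aurka (7.45 against 16.6 RPM) and 0.875 for Racgap1 (8.03 against 13.2 RPM), both low. The summed level of KC replicate 2 was high, with a gap of 0.871 (891.0 against 630.1 RPM).

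An interaction term in limma for a difference in the effect of genotype between organs or subsets passed for 9 gene values, 1 of which, Bub1 in Ly6Clow macrophages, is no measure of a difference. In Ly6Chi macrophages it was lower in the liver than in the spleen, as for 16% of all genes, for Bub1 (-2.05), Cenpa (-1.99), Kif23 (-1.35), Anln (-1.33) and Nuf2 (-0.94) on the log2 scale. In Ly6Clow macrophages it was lower in the liver, as for 14.7% of all genes, for Cenpa (-1.52) and Ndc80 (-1.01). The value of Bub1 there was -2.01, but it was too low to be tested in the spleen alone. In the liver it was higher in Ly6Clow than in Ly6Chi macrophages for Kif23 (1.10), as for 5.08% of all genes. In a comparison chosen after both orders were seen, the difference between subsets was higher in liver than in spleen for 35 genes in WT (10.6% of all genes) and 35 genes in Rnaset2-/- mice (13.7% of all genes). These counts include Ttk and Bub1, whose values are a description where their levels were low.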

How the results depend on the processing

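No gene called in a comparison of genotypes reversed its sign under the alternatives run. Comparisons of subsets and of KCs were followed by counts alone. Counts of called mitosis genes moved by over 1.5 times as follows. In 1 fit of all 29 libraries they were 18 in splenic Ly6Chi and 20 in splenic Ly6Clow macrophages between genotypes, 3 in hepatic Ly6Clow, 7 between WT liver subsets, 3 between Rnaset2-/- liver subsets, 3 for KCs and 3 for the organ interaction in Ly6Chi macrophages. With no filter on low values they were 9 and 5 in hepatic Ly6Chi and Ly6Clow macrophages between genotypes, 9 and 3 between liver subsets in WT and Rnaset2-/- mice, 2 for KCs and 1 for the organ interaction in Ly6Clow macrophages. With RPM as deposited they were 15 for KCs, 0 for the subset interaction in the liver and 1 for the organ interaction in Ly6Clow macrophages, and DESeq2 gave 15 in splenic Ly6Clow macrophages and 5 for that interaction. With the replicate block they were 12 in splenic Ly6Clow, 10 in hepatic Ly6Chi and 7 in hepatic Ly6Clow macrophages between genotypes, 22 between Rnaset2-/- splenic subsets, 13 between Rnaset2-/- liver subsets and 3 for KCs. Replicates numbered 4 have no partner and add nothing to a blocked difference. Outside the Rnaset2-/- liver not every same-numbered pair of a comparison correlated, with r of 0.0097 to 0.024 in splenic Ly6Chi and -0.062 to 0.035 in hepatic Ly6Chi macrophages. Between WT liver subsets r was 0.553 for replicate 1 but -0.12 and -0.137 for replicates 2 and 3, and it was 0.174 for KC replicate 1. In WT liver both replicate 1 libraries had no Y-linked RNA and replicates 2 and 3 did.

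Leaving out 1 library gave 34 to 34 genes in splenic Ly6Chi, 0 to 2 in splenic Ly6Clow, 4 to 20 in hepatic Ly6Chi and 5 to 21 in hepatic Ly6Clow macrophages between genotypes. Between subsets it gave 34 to 35 in WT spleen, 25 to 35 in Rnaset2-/- spleen, 6 to 15 in WT liver and 2 to 7 in Rnaset2-/- liver, and 2 to 7 for KCs. Interactions of genotype gave 0 to 6 with subset in spleen, 0 to 1 with subset in liver, 4 to 8 with organ in Ly6Chi and 0 to 4 with organ in Ly6Clow macrophages. Interactions of organ and subset gave 34 to 35 in WT and 28 to 35 in Rnaset2-/- mice. The cause of these moves was not tested. RPM as deposited moved the median of all genes by -0.11 in splenic Ly6Chi macrophages between genotypes, and by -0.14, 0.10 and -0.16 between subsets of WT spleen, WT liver and Rnaset2-/- liver. Genes at a few RPM, such as Ttk and Bub1, rest on few reads.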
